A study of Mus musculus with 2 samples.

Results

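The Sirpb1-high cDC2 cells are 805 cells in which at least 3 transcripts of the receptor genes Sirpb1a, Sirpb1b and Sirpb1c together were counted, among sorted dendritic cells (DCs) of the mouse gut and its draining lymph node. They were chosen on their own counts of unique molecular identifiers (UMIs, 1 per captured transcript). Barcodes with a single call for hashtag 2, 4 or 5, at least 500 genes and at most 10% mitochondrial UMIs were taken. A member had at least 1 UMI of Sirpa, a summed count of at least 3 for the 3 Sirpb1 genes, at most 1 UMI of Xcr1 plus Clec9a, at most 1 of Fscn1, at most 1 of Prdm16 and fewer than 10 of C1qa, C1qb and C1qc together. The rule found 250 members of 1485 cells in hashtag 2, 334 of 1619 in hashtag 4 and 221 of 1873 in hashtag 5. These are 805 of 4977 cells in the 3 hashtags and of 15480 cells in the whole series.

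The cells came from 15-day-old mice of the genotype Gm38411-iCre-hCD2, a reporter line, given no treatment. DCs of the phenotype CD3-B220-CD11c+MHC-II+ were sorted from mesenteric lymph nodes (mLN) and small-intestinal lamina propria (siLP), with 3 biological replicates a tissue, each marked by its own hashtag antibody before pooling. The transcripts were counted with Chromium 3′ v3 chemistry in 1 pooled matrix. The labels give no tissue to a hashtag, so hashtags 2, 4 and 5 and hashtags 6, 8 and 9 are named here by number; this split came with the rule. All groups carry the reporter, and unmodified mice were not among the samples used here.

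SIRPα, the product of Sirpa, is an inhibitory receptor of myeloid cells that binds CD47 and recruits phosphatases through its cytoplasmic tail. The SIRPβ1 proteins resemble it outside the cell but have a short tail, and they signal through the adaptor DAP12 (gene Tyrobp), whose activation motif recruits the kinase Syk. Conventional type 2 DCs (cDC2s) carry SIRPα and present antigen on MHC class II to CD4+ T cells, whereas type 1 cells (cDC1s) carry XCR1 and CLEC9A.

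In RefSeq (GRCm38.p6) the 3 genes lie on 1 strand of chromosome 3, with a related gene on each side. Gm9733 spans chr3:15295063-15332310, Sirpb1a chr3:15371661-15426522, Sirpb1b chr3:15495754-15575067, Sirpb1c chr3:15795147-15848530 and Gm5150 chr3:15946871-16006371, all on the minus strand. Sirpa lies apart from them, at chr2:129591042-129632228 on the plus strand. The stretches below precede the annotated starts of the 3 gate genes and of Gm5150, which had the largest rise in the members among the named genes; they are shown because the gate sums copies this alike. Capitals mark a match to the core of an interferon-response element, 2 copies of GAAA with 2 bases of any kind between them, searched on both strands.
Sirpb1a (chr3:15426523-15426677, minus strand): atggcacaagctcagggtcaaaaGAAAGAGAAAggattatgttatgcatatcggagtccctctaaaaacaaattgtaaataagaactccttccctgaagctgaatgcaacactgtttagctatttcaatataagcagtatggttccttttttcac
Sirpb1b (chr3:15575068-15575315, minus strand): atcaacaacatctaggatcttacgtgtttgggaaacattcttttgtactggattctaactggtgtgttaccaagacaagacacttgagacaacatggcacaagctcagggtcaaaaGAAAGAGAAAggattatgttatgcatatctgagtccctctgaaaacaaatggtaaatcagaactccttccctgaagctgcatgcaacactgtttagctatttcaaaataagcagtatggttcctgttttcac
Sirpb1c (chr3:15848531-15848737, minus strand): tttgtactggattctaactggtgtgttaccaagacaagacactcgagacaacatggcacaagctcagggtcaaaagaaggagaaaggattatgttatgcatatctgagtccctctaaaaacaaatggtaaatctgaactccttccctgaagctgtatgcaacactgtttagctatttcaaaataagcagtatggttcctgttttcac
Gm5150 (chr3:16006438-16006582, minus strand): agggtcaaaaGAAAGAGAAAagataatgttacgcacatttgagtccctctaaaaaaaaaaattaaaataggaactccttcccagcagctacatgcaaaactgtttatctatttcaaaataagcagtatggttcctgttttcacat

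Around the starts, Sirpb1a was 95.7% identical to Sirpb1b over 207 aligned bases and 95.6% to Sirpb1c over 248, and Sirpb1b and Sirpb1c were 98.1% identical over 259. This element was found upstream of Sirpb1a, Sirpb1b and Gm5150, as in 2.98% of all 32851 promoters of 250 bases, and not upstream of Sirpb1c. TGANTCA, found in 6.75% of promoters, and TTGCNNAA, in 9.56%, were found upstream of none of these 4 genes. AGGAAGT, the core bound by PU.1 and other ETS factors, found in 7.69% of promoters, was found upstream of Sirpb1a and Gm5150, though not whole within the stretches printed. Likeness within the transcripts bears on the counts. Of the 91-base windows of Sirpb1b transcripts, 46.7% also occurred in Sirpb1c, and of those of Sirpb1a, 16.1% occurred in Sirpb1b and 21.9% in Sirpb1c. Levels of the single Sirpb1 genes are therefore uncertain, and their sum is the firmer measure. Gm5150 and Gm9733 shared no such window with any of the others. Only exact matches within annotated transcripts were searched, so sharing of reads with mismatches or from introns was not tested.

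The members' share of all cells was 16.8% (95% Wilson interval 15.0 to 18.8) in hashtag 2, 20.6% (18.7 to 22.7) in hashtag 4 and 11.8% (10.4 to 13.3) in hashtag 5. Among cells that passed the rest of the gate, here called the cDC2 gate, members made up 42.1%, 51.9% and 37.9%. The same gate took 4.40%, 4.36% and 3.74% of the cells of hashtags 6, 8 and 9. In every hashtag of the first trio the share was above every share of the second, although a cell of the second trio held more UMIs. After all cells had been thinned to 3000 UMIs, with a Sirpb1 sum of at least 2 as the bar, hashtags 2, 4 and 5 had shares of 12.96%, 16.6% and 8.91%. Hashtags 6, 8 and 9 had 0.912%, 0.785% and 0.486%.

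**Figure D1:**
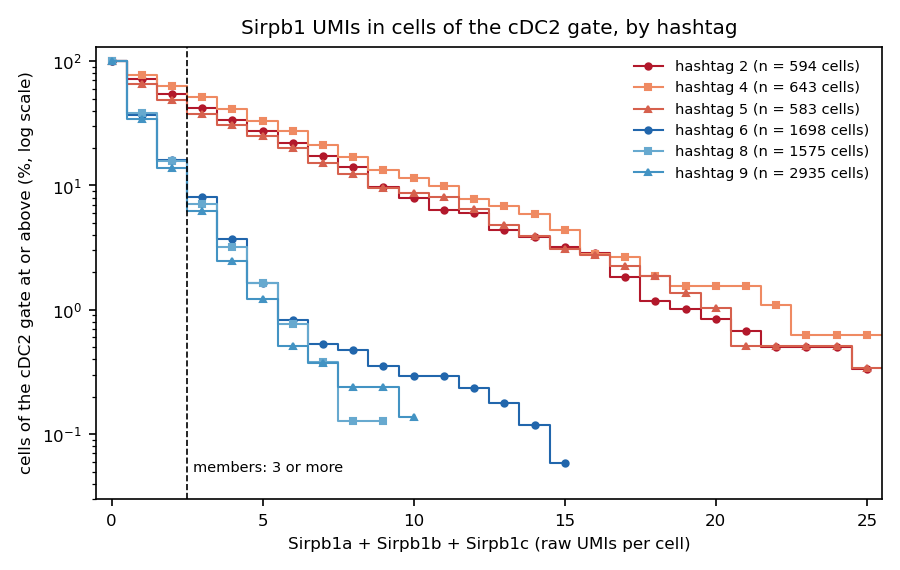
Share of cells of the cDC2 gate (y axis, %, log scale) that held at least the given summed count of Sirpb1a, Sirpb1b and Sirpb1c (x axis, raw UMIs per cell, drawn up to 25), 1 line per hashtag. The dashed line is the bar of 3 UMIs, which the gate reached at 42.1%, 51.9% and 37.9% in the first trio and at 8.01%, 7.05% and 6.20% in the second; no gap in the lines sets the members off at that bar.

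Sirpb1 counts were graded and did not fall into separate clusters. The median sum was 6 UMIs and the highest 48: 382 members (47.5%) held 3 to 5, 251 (31.2%) held 6 to 9 and 172 (21.4%) held 10 or more. Sirpb1a was counted in 718 members (89.2%), Sirpb1b in 661 (82.1%) and Sirpb1c in 419 (52.1%). All 3 genes were counted in 300 members, 2 of them in 393 and 1 in 112. Cells with a sum of 3, just inside the bar, had Sirpb1a at 183, 234 and 199 CPM (UMIs per 1000000 of the class) in hashtags 2, 4 and 5, and cells with a sum of 2, just outside, at 148, 185 and 130. Sirpb1a is part of the sum, so its likeness on both sides of the bar follows from the grouping. Cells with sums of 2, 3 and 4 numbered 74, 49 and 39 in hashtag 2, with no gap at the bar. They numbered 72, 69 and 52 in hashtag 4 and 63, 41 and 35 in hashtag 5.

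By the rule, the members were high in Sirpb1a, at 356, 455 and 370 CPM in hashtags 2, 4 and 5. Cells of the same gate with a sum of 0 to 2, called Sirpb1-low (344, 309 and 362 cells), had 59.4, 76.3 and 48.4 CPM. Sirpb1b stood at 285, 294 and 276 CPM in the members and at 57.9, 51.5 and 49.4 in Sirpb1-low cells. Sirpb1c stood at 115, 149 and 89.6 CPM in the members and at 13.6, 18.0 and 11.9 in Sirpb1-low cells. These values chose the members and were not tested. Sirpa itself was alike in both classes, at 485, 501 and 456 CPM in the members and 500, 495 and 425 in Sirpb1-low cells.

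Free RNA in the droplets reaches every cell, and its share was read from cells that should lack a gene. At 2000 UMIs a cell, Sirpb1a was counted in 57.6% of 802 members (89.2% before thinning), 13.6% of 948 Sirpb1-low cells (27.0%) and 1.98% of 860 cells with at least 2 UMIs of Xcr1 plus Clec9a, called the cDC1 gate (5.56%). Thinning left out 3, 67 and 4 shallower cells, and the median depths were 7857, 4355 and 10052 UMIs. Sirpb1a was thus counted in Sirpb1-low cells more often than in cDC1-gate cells, so the Sirpb1-low cells are lower in Sirpb1 but not free of it. Barcodes of at most 100 UMIs held Sirpb1a at 38.7 CPM, above the 7.68, 17.1 and 6.78 CPM of the cDC1 gate. Cells with at least 2 UMIs of Fscn1, which encodes fascin of mature migratory DCs, had 29.2, 51.4 and 28.4 CPM.

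Gfra2 and Esrrg, given as further markers of these cells, did not set the members apart from Sirpb1-low cells to the same degree. Gfra2, a GDNF-family co-receptor, stood at 75.4, 76.7 and 72.7 CPM in the members of hashtags 2, 4 and 5 and at 55.3, 66.4 and 41.5 in Sirpb1-low cells. The ranges did not overlap. Esrrg, an orphan nuclear receptor, stood at 191, 177 and 214 CPM in the members and at 188, 179 and 182 in Sirpb1-low cells, and these ranges overlapped. At 2000 UMIs, Gfra2 was counted in 12.7% of members, 10.5% of Sirpb1-low cells and 0.930% of cDC1-gate cells, and Esrrg in 24.6%, 25.0% and 1.51%. Both genes thus marked Sirpb1-high and Sirpb1-low cells alike against the cDC1 gate, where Gfra2 stood at 3.69, 7.88 and 4.52 CPM and Esrrg at 4.91, 17.4 and 7.79. In hashtags 6, 8 and 9, Gfra2 was near 0 in the Sirpb1-high cells, at 1.73, 0.582 and 1.25 CPM.

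The label cDC2 was checked against marker lists. Members expressed the DC transcription factor Zbtb46 at 319, 347 and 277 CPM, the cytokine receptor Flt3 at 300.1, 294 and 274 CPM, Itgam (CD11b) at 140, 127 and 134 CPM and the MHC class II chain H2-Ab1 at 2803, 2988 and 2728 CPM. Clec10a and Mgl2, lectins of many cDC2s, were sparse: Clec10a stood at 41.4, 61.4 and 27.9 CPM, and 102 members (12.7%) held a UMI of it. Of the monocyte markers, Vcan and Chil3 were at 0 in the members of all 3 hashtags, and Ly6c2 was at 0, 0 and 0.457 CPM. The neutrophil genes S100a8, S100a9 and Ly6g and the macrophage gene Trem2 were at 0. Mertk was at 0.436 to 1.49 CPM; the C1q genes were held low by the gate. Irf8, high in cDC1s, was at 29.6, 30.9 and 25.2 CPM. Other genes of the same lists were counted widely: of the monocyte list, S100a4 stood at 1311, 1387 and 1364 CPM and Plac8 at 685, 671 and 673 CPM, and of the cDC1 list, Wdfy4 stood at 1412, 1310 and 1384 CPM. At least 3 UMIs of the monocyte list were counted in 675 of 805 members (83.9%) and 634 of 1015 Sirpb1-low cells (62.5%). This bar is on raw UMIs, and the members were counted more deeply. Other lists also reached it more often in the members, the cDC1 list in 94.4% against 82.8% and the epithelial and stromal list in 20.2% against 11.6%. The T and NK cell list went the other way, at 1.37% against 3.65%.

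Depth moved with the gate, since a bar on raw UMIs is reached more easily by a deeply counted cell. Median UMIs were 8151, 7040 and 8978 in members of hashtags 2, 4 and 5 and 4749, 4064 and 4129 in Sirpb1-low cells, and median mitochondrial shares were 3.38%, 3.55% and 2.73% against 4.803%, 5.11% and 5.39%. The UMIs summed per class and hashtag ran from 1611705 to 2686984. The comparison of members with Sirpb1-low cells was therefore repeated in both trios in cells of 5000 to 15000 UMIs, called the depth window, and with the gate applied to cells thinned to 3000 UMIs (a Sirpb1 sum of at least 2 against 0), called the thinned gate. The 2 classes of a hashtag come from the same mice, so a shift of a gene's level can reflect more cells expressing it or more RNA per cell.

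Members differed from Sirpb1-low cells of hashtags 2, 4 and 5 in 1593 of 11076 genes (14.4%, edgeR quasi-likelihood test, adjusted p below 0.05), of which 822 were higher (7.42%) and 771 lower (6.96%). The median log2 fold change over all genes tested was 0.00232. In the depth window 419 genes were called (4.35%), 195 higher (2.02%) and 224 lower (2.33%). With the thinned gate 663 were called (6.62%), 284 higher (2.84%) and 379 lower (3.78%). Without hashtag 5, 924 were called. Of the 822 higher genes, 163 were also called higher in the depth window and 151 with the thinned gate; of the 771 lower genes, 206 and 245 were. A bar of at least 3 Sirpa UMIs in both classes gave 530 (5.12%), 217 higher (2.1%) and 313 lower (3.02%). In all 4 forms, 60 genes were called higher and 86 lower. Among the 60 were Gm5150, Gm9733, Ifitm3, Ifitm6, Skint3, Plac8, Clec10a, Cd209a, Csf1r, Fcgr2b, Adgre1 and Lyn.

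The genes on each side of the Sirpb1 genes had the largest rises among named genes. Gm5150 stood at 55.3, 77.4 and 47.6 CPM in the members and 20.3, 22.3 and 13.3 in Sirpb1-low cells. It was higher by 1.72 ± 0.18 on the log2 scale (SE derived from the edgeR fit, n = 3 hashtags, edgeR adjusted p = 2.05e-06). Gm9733, at 41.8, 54.3 and 31.1 CPM against 24.0, 20.5 and 13.8, was higher by 1.16 ± 0.20 (edgeR adjusted p = 0.00044). Neither pair of ranges overlapped. Gm5150 was carried by many cells: 206 members (25.6%) held 439 UMIs of it, and 49 cells held 50% of these. In the depth window Gm5150 was higher by 2.501 and with the thinned gate by 2.93, and Gm9733 by 1.39 and 1.12. In the cDC2 gate of these hashtags Gm5150 was at 7.93, 14.1 and 9.33 CPM where no Sirpb1 UMI was counted and at 70.9, 135 and 71.2 CPM where 10 or more were.

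**Figure D2:**
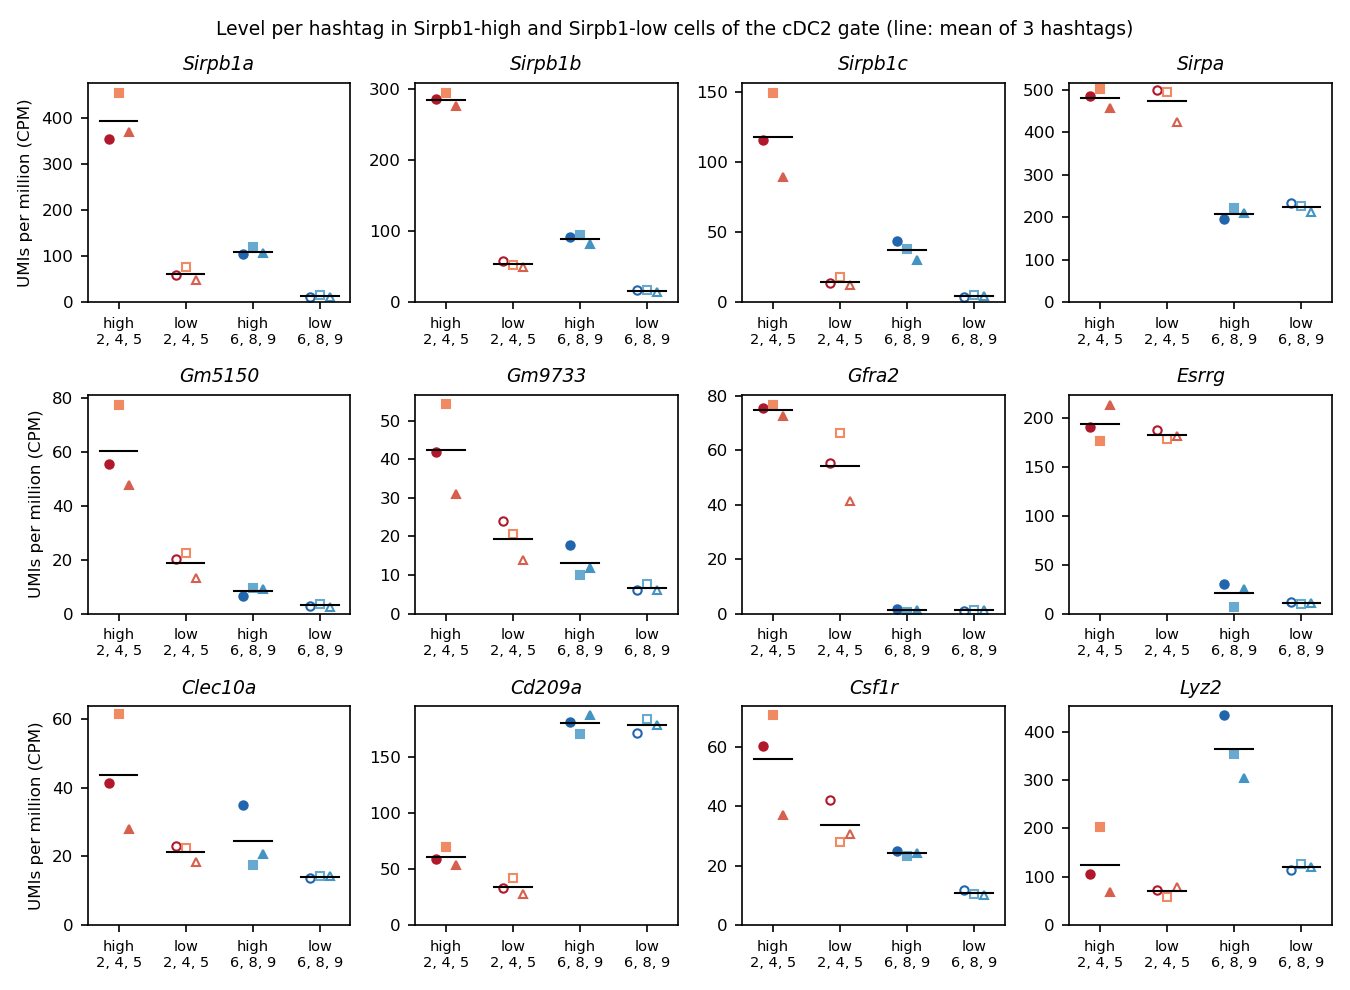
Level (CPM, y axis, each panel on its own scale from 0) of 12 genes in Sirpb1-high cells (filled) and Sirpb1-low cells (open) of the cDC2 gate, 1 point per hashtag, with a line at the mean of 3 hashtags; circles, squares and triangles are hashtags 2, 4 and 5 (red) or 6, 8 and 9 (blue). Gm5150 lies between 47.6 and 77.4 CPM in the members and at 22.3 or below in Sirpb1-low cells, Esrrg overlaps between the classes, and Cd209a lies apart between the classes in hashtags 2, 4 and 5 and overlaps in hashtags 6, 8 and 9.

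Of the cDC2B-type list, which holds lectins and myeloid genes of one described cDC2 subset, 6 of 11 genes tested rose and 1 fell, with a median log2 fold change of 0.618. Among all genes tested, 7.42% rose and 6.96% fell. Clec10a, at 41.4, 61.4 and 27.9 CPM against 22.9, 22.3 and 18.3, was higher by 1.04 ± 0.21 (edgeR adjusted p = 0.00187), and 17 of the 102 members with a UMI held 50% of its UMIs. Cd209a, a mouse relative of DC-SIGN, stood at 58.8, 69.6 and 53.5 CPM against 32.8, 41.6 and 27.7 and was higher by 0.88 ± 0.12 (edgeR adjusted p = 4.58e-05). For both lectins every hashtag of the members lay above every hashtag of the Sirpb1-low cells. Csf1r, the receptor of the growth factor CSF1, was higher by 0.75 ± 0.17, but the lowest members' value of 37.0 CPM lay below the highest Sirpb1-low value of 42.2. Ccr2, a chemokine receptor, was higher by 0.62 ± 0.17, a call that ended in the depth window (edgeR adjusted p = 0.253). Without hashtag 4 the calls of Clec10a (0.78, edgeR adjusted p = 0.0636), Csf1r (0.44, edgeR adjusted p = 0.126) and Ccr2 (0.44, edgeR adjusted p = 0.241) ended, as did that of Ccr2 without hashtag 5 (0.70, edgeR adjusted p = 0.0502). Klf4, a transcription factor of some cDC2s, fell by 0.32 on the log2 scale (edgeR adjusted p = 0.0496), a call that ended in both depth forms. The depth window called 5 of 10 genes of the list higher and the thinned gate 7 of 11, with none lower. The cDC2A-type list, of the other described subset, had 0 of 11 genes higher and 1 lower.

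Monocyte and macrophage genes moved as well. Of 8 monocyte markers tested, S100a4, Plac8, Lyz2 and Csf1r rose and 1 fell, where 7.42% of all genes rose and 6.96% fell. The whole list of 15 summed to 2243, 2418 and 2220 CPM in the members and 1634, 1593 and 1666 in Sirpb1-low cells, with Vcan and Chil3 at 0 in the members. Plac8, expressed in several myeloid cells, stood at 685, 671 and 673 CPM against 356, 438 and 499.6 and was higher by 0.70 ± 0.07 (edgeR adjusted p = 8.83e-07). Lyz2, lysozyme, named after its values were seen, was higher by 0.79 ± 0.23, but its ranges of 68.6 to 202 and 58.9 to 79.5 CPM overlapped, and the call ended in the depth window (edgeR adjusted p = 0.216). Adgre1, which encodes F4/80, stood at 312, 324 and 290 CPM against 233, 227 and 172. It was higher by 0.60 ± 0.07. The macrophage markers summed to 426 to 452 CPM in the members and 352 to 406 in Sirpb1-low cells, a sum that includes Adgre1 itself. Of 9 macrophage markers tested, Adgre1 and Cd68 rose and Cd63 and Timd4 fell, with a median log2 fold change of -0.45. A part of monocytes or macrophages in these results was not tested.

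Of 15 genes of DAP12 and related activation-motif signalling, 6 rose and none fell, with a median log2 fold change of 0.176. Among all genes tested, 7.42% rose and 6.96% fell. The depth window called 5 of the 15 higher and the thinned gate 3. In hashtags 6, 8 and 9, 1 of the 15 was higher and 2 were lower. Tyrobp, the DAP12 gene, stood at 590, 622 and 531 CPM in the members and 447, 449 and 426 in Sirpb1-low cells, a rise of 0.44 ± 0.05 (edgeR adjusted p = 9.36e-06). Fcer1g, which encodes the sister adaptor of Fc receptors, stood at 392, 389 and 391 CPM against 304.4, 295 and 303.6. Lyn, a Src-family kinase that phosphorylates such motifs, stood at 961, 1054 and 1090 CPM against 786, 794 and 787. None of these 3 pairs of ranges overlapped. Btk and Ptpn6 were among the others that rose. The rise of Lyn was 0.65 with the thinned gate, where those of Tyrobp (0.25, edgeR adjusted p = 0.168) and Fcer1g (0.10, edgeR adjusted p = 0.78) were not called.

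Some inhibitory receptors of myeloid cells were also higher. Of 13 tested, Fcgr2b, Clec4a2, Clec12a, Lair1 and Cd300a rose and none fell, with a median log2 fold change of 0.236, and the same 5 were called higher in the depth window. With the thinned gate Clec4a2 lost its call and Cd200r1 gained one, and with at least 3 Sirpa UMIs in both classes Fcgr2b and Clec12a were called. Fcgr2b, the inhibitory Fc receptor, stood at 34.4, 43.9 and 21.5 CPM in the members and 18.8, 28.5 and 16.8 in Sirpb1-low cells, which overlapped, with a rise of 0.68 ± 0.16 that was not called without hashtag 2 (0.57, edgeR adjusted p = 0.0766) or hashtag 4 (0.68, edgeR adjusted p = 0.0549). Clec4a2 (DCIR) stood at 118, 115 and 104 CPM against 75.1, 83.1 and 70.1. Lair1, a collagen receptor, stood at 90.6, 106 and 123 CPM against 77.2, 83.1 and 57.8, a rise not called without hashtag 5 (0.34, edgeR adjusted p = 0.117). Of 11 further receptors of myeloid cells tested, Cd300c2 rose and Siglecf fell, where 7.42% of all genes rose and 6.96% fell.

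Antigen presentation genes were higher by small steps. Of 14 MHC class II genes, 8 rose and 1 fell, with a median log2 fold change of 0.252, where 7.42% of all genes rose and 6.96% fell. Cd74, the invariant chain, stood at 6514, 7009 and 6673 CPM in the members and 5208, 5454 and 5383 in Sirpb1-low cells (0.37 ± 0.03, edgeR adjusted p = 8.87e-08). In the depth window 6 of 14 rose. With the thinned gate none of the 8, Cd74 included, was called, and Ciita, the transactivator of these genes, was. Zbtb46 rose by 0.32 ± 0.07 and Itgam by 0.37 ± 0.09, both also called in the depth window and with the thinned gate but not with at least 3 Sirpa UMIs in both classes, and Itgam was not called without hashtag 5 (0.31, edgeR adjusted p = 0.0896). Of the other cDC2 identity genes, Irf4, a transcription factor of cDC2s, stood at 70.1, 65.1 and 71.3 CPM against 118, 94.3 and 91.3 and fell by 0.51 on the log2 scale, but was at 0.03 with the thinned gate. Flt3 (0.02), Kit (-0.02), Batf3 (-0.03), Cd7 (-0.15), Itgax (0.21), Clec4a4 (0.35) and Mgl2 (0.79) were not called.

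The remaining genes that rose most included Ifitm3 and Ifitm6, membrane proteins of the interferon-induced transmembrane family, and Skint3, an immunoglobulin-superfamily gene. Ifitm3 was at 322, 325 and 298 CPM against 139, 176 and 191 (0.94 ± 0.08, edgeR adjusted p = 3.69e-07). Ifitm6 was at 116, 124 and 115 CPM against 57.9, 57.1 and 56.3 (1.09 ± 0.10), and Skint3 at 101, 144 and 86.4 CPM against 55.3, 65.8 and 40.0 (1.08 ± 0.11). None of these ranges overlapped, and all 3 were called in the depth window and with the thinned gate. Of 11 genes tested from a list of interferon-stimulated genes, 0 were called higher and 0 lower, with a median log2 fold change of -0.341.

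**Figure D3:**
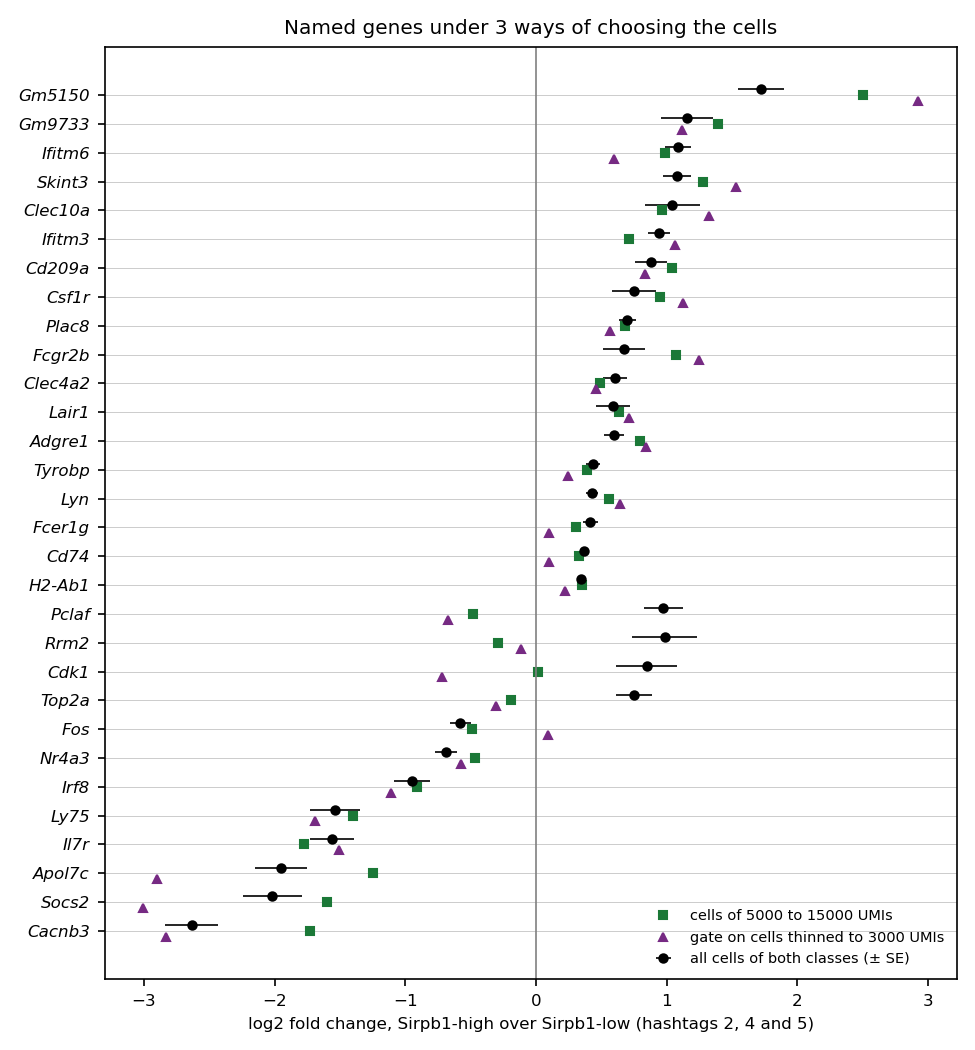
Log2 fold change of named genes between Sirpb1-high and Sirpb1-low cells of hashtags 2, 4 and 5 (x axis) for all cells (black, bars are SE), for cells of 5000 to 15000 UMIs (green squares) and for the gate on cells thinned to 3000 UMIs (purple triangles). Gm5150, Gm9733, Skint3, Adgre1 and Lyn stay right of 0 in all 3, whereas the cell-cycle genes Pclaf, Rrm2 and Top2a lie left of 0 in both depth forms.

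Cell-cycle genes were higher over all cells but not in the depth forms. Of 15 tested, 7 rose over all cells, where 7.42% of all genes rose. Rrm2, a ribonucleotide reductase subunit, was higher by 0.99 ± 0.25 and Top2a, a topoisomerase of dividing cells, by 0.75 ± 0.14. Without hashtag 5 Rrm2 was not called (0.53, edgeR adjusted p = 0.247). In the depth window none rose and 1 fell, and Top2a was at -0.19. With the thinned gate none rose and 3 fell. At 2000 UMIs Top2a was counted in 9.35% of members and 9.18% of Sirpb1-low cells (21.0% and 15.4% before thinning), and Mki67 in 11.3% and 10.8%. Early response genes were lower over all cells, with 12 of 17 called and none higher, where 6.96% of all genes fell. Among the 12 were Fos (-0.58) and Nr4a3 (-0.69). The depth window called 4 of these genes and the thinned gate 2, where Fos was at 0.09. The counts of both lists thus shrank or turned in the depth forms.

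Genes lower in the members were led by markers of migratory DCs and by genes found in few comparator cells. All 9 migratory DC markers tested fell, with a median log2 fold change of -1.64, where 6.96% of all genes fell. Without the gate gene Fscn1, the markers of the list summed to 318, 346 and 288 CPM in the members and 677, 722 and 775 in Sirpb1-low cells. Cacnb3, a calcium channel subunit, stood at 10.02, 7.07 and 7.77 CPM against 48.5, 47.2 and 64.2 (-2.63 ± 0.20), and Apol7c at 30.9, 32.0 and 21.0 CPM against 100.1, 118 and 118 (-1.95 ± 0.20). Ccr7, the receptor that guides DCs to lymph nodes, stood at 23.1, 27.5 and 26.1 CPM against 61.5, 43.4 and 75.5. The list stayed at 9 lower of 9 with the thinned gate and was at 5 lower of 8 in the depth window. Ly75 (DEC-205), an endocytic lectin, was at 20.5, 16.4 and 15.1 CPM against 56.3, 47.8 and 50.9 (-1.54 ± 0.19). Irf8 was at 29.6, 30.9 and 25.2 CPM against 53.2, 58.3 and 58.8 (-0.95 ± 0.14). The gate allowed at most 1 Fscn1 UMI in both classes, which is a tighter limit for the deeper members. Fscn1 had 39, 59 and 38 UMIs in the members and 77, 64 and 82 in Sirpb1-low cells. The limit on Xcr1 plus Clec9a was likewise on raw UMIs. How far these limits lowered migratory DC markers and Irf8 in the members was not tested.

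The lowest values rest on few cells of the comparator. Cntn1, a neuronal adhesion gene, was at 0.436, 1.86 and 0 CPM in the members and 57.9, 27.3 and 52.3 in Sirpb1-low cells (-5.65 ± 0.47), but 37 of 1015 Sirpb1-low cells held its 261 UMIs and 6 cells held 50% of them. Apol7c was spread over more cells, with 27 Sirpb1-low cells holding 50% of its UMIs, and it was counted in 17.6% of members and 21.1% of Sirpb1-low cells. Cd3g, a T cell receptor subunit, fell by 2.38 on the log2 scale and had 172 UMIs in 42 Sirpb1-low cells. T and NK cell markers summed to 49.5, 175 and 262 CPM in Sirpb1-low cells and 29.6, 13.8 and 99.7 in the members. At least 3 UMIs of that list were counted in 37 of 1015 Sirpb1-low cells and 11 of 805 members. A part of such cells in the lower genes was not tested.

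The same gate in hashtags 6, 8 and 9, which the rule did not use, held 136, 111 and 182 Sirpb1-high and 5779 Sirpb1-low cells. Most were near the bar: 388 of 429 (90.4%) had a sum of 3 to 5, and the highest was 15. Sirpb1a had 242, 205 and 339 UMIs among the 2312896, 1718489 and 3200295 UMIs of these Sirpb1-high cells. Such shares lie below those of the members, and below the 148, 185 and 130 CPM of cells with a sum of 2 in hashtags 2, 4 and 5. In hashtags 6, 8 and 9 the class name thus stands for the gate only, not for a like level of Sirpb1. Median depths were 15715, 15367 and 16170 UMIs in Sirpb1-high and 12373, 12136 and 12761 in Sirpb1-low cells. There 836 genes (7.55%) were called, 343 higher (3.1%) and 493 lower (4.45%), with a median of 0.00453 over all genes; scaling by relative log expression gave 276 higher and 846 lower, and DESeq2 gave 100 and 451. The count of higher genes was smaller without any one of these hashtags: without hashtag 6 it was 124 (643 lower), without hashtag 8 it was 171 (646 lower) and without hashtag 9 it was 166 (653 lower). In the depth window 152 were called (1.58%), 40 higher (0.415%) and 112 lower (1.16%), and with the thinned gate 89 (0.889%), 21 higher (0.21%) and 68 lower (0.679%).

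The neighbours of the gate genes rose over all cells of this trio. Gm5150 stood at 6.49, 9.31 and 9.06 CPM against 2.93, 3.68 and 2.36 (1.43 ± 0.24, edgeR adjusted p = 0.000604), and Gm9733 at 17.7, 9.89 and 11.9 CPM against 6.18, 7.58 and 6.05 (0.93 ± 0.21, edgeR adjusted p = 0.00823). Both pairs of ranges were apart. The counts were small: the Sirpb1-high cells of hashtags 6, 8 and 9 held 15, 16 and 29 UMIs of Gm5150 and 41, 17 and 38 of Gm9733. In the depth window Gm5150 was higher by 1.58 (edgeR adjusted p = 0.0336) and Gm9733 was not called (1.10, edgeR adjusted p = 0.0783), nor was it without hashtag 6 (0.56, edgeR adjusted p = 0.212) or hashtag 9 (0.86, edgeR adjusted p = 0.0626). The thinned gate left 26, 18 and 22 Sirpb1-high cells and called neither, with Gm5150 at -0.92. Csf1r, at 25.1, 23.3 and 24.4 CPM against 11.9, 10.4 and 10.2, rose by 1.08 ± 0.17 (edgeR adjusted p = 0.000458), and Lyz2, at 434, 354 and 303 CPM against 114, 126 and 120, by 1.496 ± 0.15. Neither rise held in the depth forms: in the depth window Csf1r (0.82, edgeR adjusted p = 0.273) and Lyz2 (0.58, edgeR adjusted p = 0.523) were not called, and with the thinned gate Csf1r was at -1.09 and Lyz2 was called lower (-0.96, edgeR adjusted p = 0.00872). Clec10a rose by 0.69 ± 0.18, Ifitm3 by 0.38 ± 0.07 and Ifitm6 by 0.31 ± 0.07; of these 3, Ifitm3 alone was also called in the depth window (0.68) and with the thinned gate (0.54). Without hashtag 6 none of the 3 was called (0.25, 0.25 and 0.18). Esrrg was called higher (0.88 ± 0.20, edgeR adjusted p = 0.00913), but its 30.3, 6.40 and 25.6 CPM were above the 12.2, 9.996 and 11.2 CPM of Sirpb1-low cells in 2 of 3 hashtags only, and it was at -0.26 in the depth window. For Gfra2 the estimate was 0.00 ± 0.47 (edgeR adjusted p = 0.999). The cell-cycle list had 10 of 15 genes higher over all cells, with a median log2 fold change of 0.743, where 3.1% of all genes were higher. In the depth window the median of the list was 0.0713 and these calls ended.

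The contrast of Sirpb1-high with Sirpb1-low cells differed between the trios for several genes, tested as the difference of the 2 contrasts. In this test 594 genes (5.36%) were called, 368 (3.32%) with the larger value in hashtags 2, 4 and 5 and 226 (2.04%) with the smaller. The Sirpb1-high cells of the trios also differed in Sirpb1 level, and a part of this in the differences was not tested. Cd209a rose in the members of hashtags 2, 4 and 5 but stood at 181, 171 and 187 CPM against 172, 184 and 178 in hashtags 6, 8 and 9 (-0.07 ± 0.07); the difference of the contrasts was 0.95 ± 0.14 (edgeR adjusted p = 0.000222), also called in the depth window (0.99, edgeR adjusted p = 0.022) but not with the thinned gate (0.59, edgeR adjusted p = 0.364). Tyrobp rose in the first trio and fell by 0.17 on the log2 scale in the second (difference 0.60 ± 0.07, edgeR adjusted p = 3.35e-05), and the difference was not called in the depth window (0.40, edgeR adjusted p = 0.0545) or with the thinned gate (0.32, edgeR adjusted p = 0.461). For Gm5150 (0.29 ± 0.29) and Gm9733 (0.23 ± 0.29) the difference was not called, except for Gm5150 with the thinned gate (3.85, edgeR adjusted p = 0.00154). Of 822 genes higher in the first trio, 115 were also called higher in the second, which is 14.0% of the first and 33.5% of the second list. Of 771 lower genes 172 were shared, 22.3% and 34.9%. Among all genes tested, 3.1% were called higher and 4.45% lower in the second trio. In the first trio these shares were 7.42% and 6.96%.

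**Figure D4:**
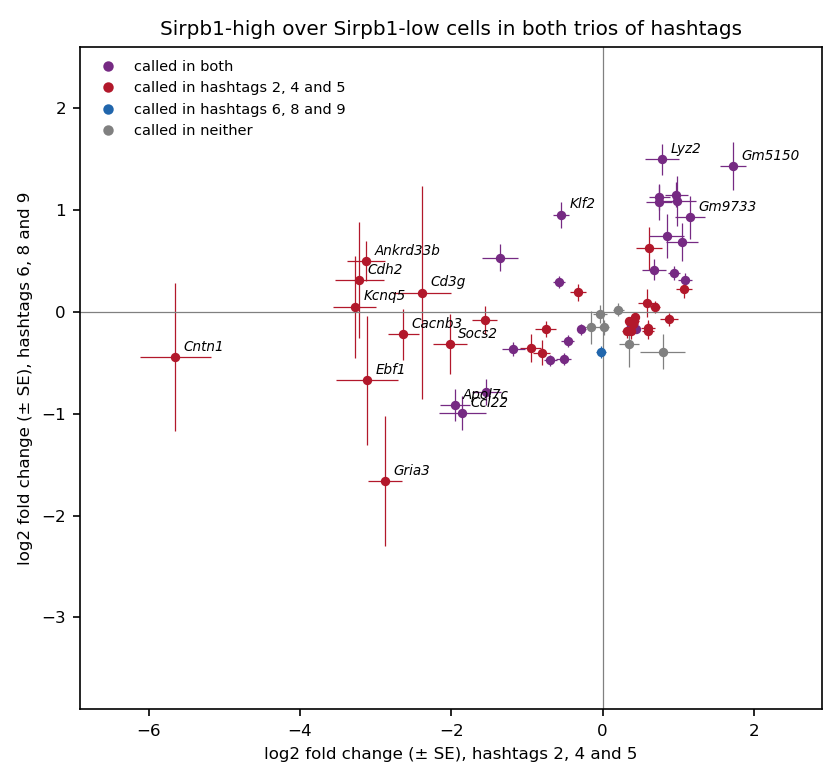
Log2 fold change between Sirpb1-high and Sirpb1-low cells in hashtags 2, 4 and 5 (x axis) and in hashtags 6, 8 and 9 (y axis) for the genes named in the text, with SE bars; colours give where a gene was called at an edgeR adjusted p below 0.05. Gm5150 lies at 1.72 and 1.43 and Gm9733 at 1.16 and 0.93, while the large negative values of Cntn1, Kcnq5 and Cdh2 in the first trio lie near 0 or with wide bars in the second.

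Against all other cells of hashtags 2, 4 and 5, where members make up 805 of 4977, 4459 of 12686 genes were called (35.1%), 1980 higher (15.6%) and 2479 lower (19.5%). This contrast repeats what the gate takes out, so the low Irf8 (-4.36) and the low cDC1 markers (7 of 8 lower) are given as a description. Of genes outside the gate, Gm5150 was higher by 2.92 ± 0.14, Clec10a by 2.25, Ifitm6 by 2.24, Csf1r by 2.07, Clec4a2 by 2.03 and Adgre1 by 1.88. Of 13 inhibitory receptors 12 were higher and 1 lower, and of 15 cDC2 identity genes 10 were higher and 3 lower. The Sirpb1-low cells are part of this comparison group, so its values are not independent of those above.

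Within the members, cells with a Sirpb1 sum of at least 6 (130, 176 and 117 cells) were set against those with 3 to 5 (120, 158 and 104 cells), a comparison added after the data had been seen. Of 9236 genes, 165 were called (1.79%), 58 higher (0.628%) and 107 lower (1.16%); without hashtag 2, 75 were, and without the hashtag block 11. Median depths were 9739, 8692 and 11778 UMIs against 6893, 5461 and 7132, and in the depth window 29 genes were called (0.378%), 18 higher (0.235%) and 11 lower (0.143%). Lyz2 stood at 136, 261 and 82.7 CPM in the higher and 57.6, 110 and 45.1 CPM in the lower class, higher in each hashtag though the ranges overlapped (1.18 ± 0.13, edgeR adjusted p = 1e-05; 1.67 in the depth window). Gm5150 stood at 64.6, 95.8 and 57.8 CPM against 40.98, 48.7 and 30.5 (0.87 ± 0.17, edgeR adjusted p = 0.00494; 1.23 in the depth window). Klf4 stood at 79.0, 79.3 and 86.4 CPM against 104, 147 and 225 and fell by 0.92 on the log2 scale (edgeR adjusted p = 0.00084; -0.84 in the depth window). For Gm5150 and Klf4 the classes did not overlap. Ifitm3 (0.56), Gm9733 (0.79) and Top2a (0.69) were called over all cells but not in the depth window, where their edgeR adjusted p were 0.202, 0.363 and 0.106. The values of Gfra2 (0.01) and Esrrg (-0.27), within the members were not tested.

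**Figure D5:**
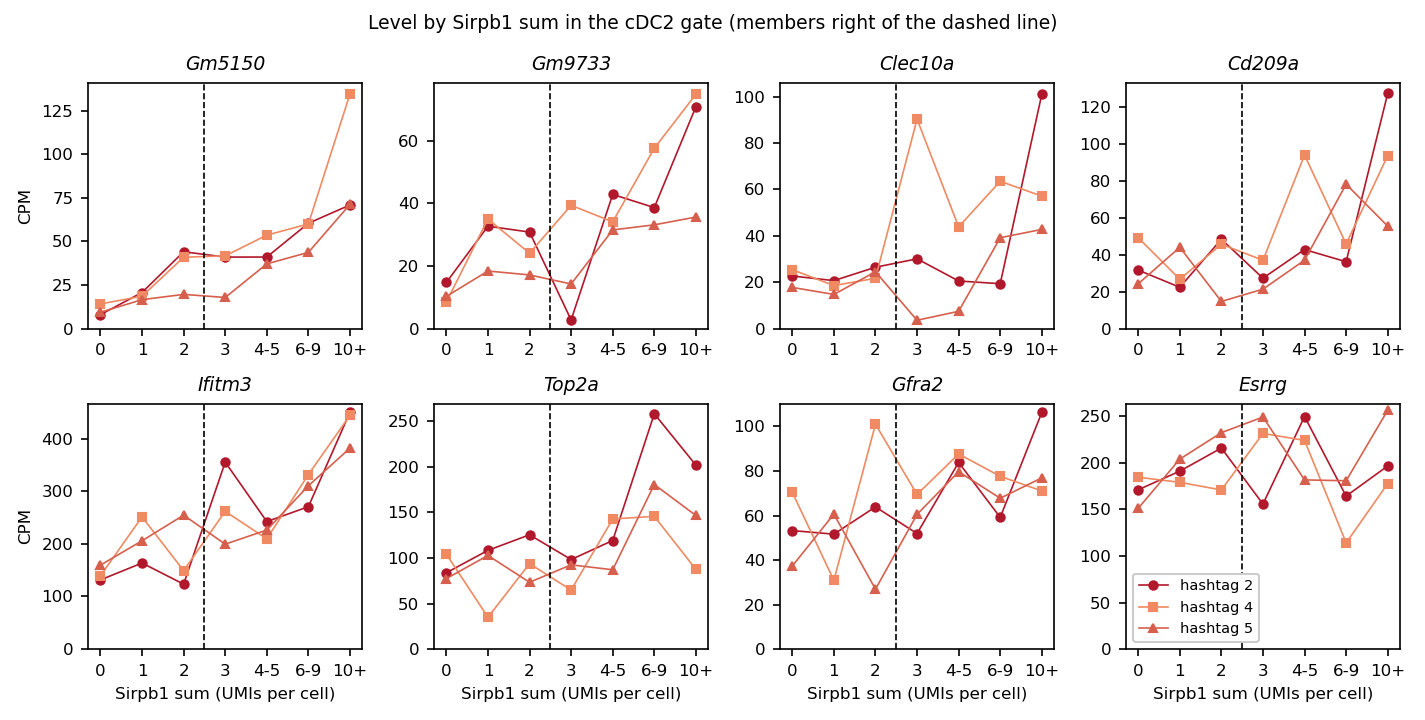
Level (CPM, y axis) of 8 genes in cells of the cDC2 gate grouped by their Sirpb1 sum (x axis, raw UMIs per cell), 1 line per hashtag (2, 4 and 5), with the members right of the dashed line. Gm5150 climbs from 7.93 to 14.1 CPM at a sum of 0 to between 70.9 and 135 CPM at 10 or more, whereas Esrrg shows no such climb; cells with a larger sum were also deeper.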

How the data were processed

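The gene expression file that the authors deposited holds raw UMI counts for genes and hashtag antibodies; the submitters' processing notes name Cell Ranger 8.0.1 and mm10. A deposited table adds each barcode's hashtag call and its probability, a fraction. Whether counting used introns or strand was not stated in these sources. The matrix held 3247803 barcodes, 27679 of them in the table, and 310491000 gene UMIs. Of the table, 15 columns were not used. Single-hashtag barcodes numbered 19239; 1294 fell under 500 genes, 3627 exceeded 10% mitochondrial UMIs and 15480 remained. Hashtag multiplets were left out (439 of 4231 that passed the filters fell in the gate); no doublet caller was run, and 1 alternative dropped cells above the 95th percentile of UMIs.

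UMIs were summed per class and hashtag and tested with edgeR 4.0.16 in R 4.3.3 (quasi-likelihood test, TMM scaling, filterByExpr, hashtag as block, Benjamini-Hochberg over all genes tested, called below 0.05). Gate genes, Gfra2 and Esrrg were left out of the calls where the rule or the label used them. Hashtags 2, 4 and 5 and 6, 8 and 9 shared 1 fit of 12 sums with 4 residual degrees of freedom; the other fits had 6 sums and 2. A hashtag is 1 biological replicate per the labels, so its classes are paired by origin; the correlation of their deviations from the class means over 11088 genes was 0.0778 to 0.186 within and -0.146 to 0.0481 between hashtags. On simulated counts for the first contrast (9696 genes), 76% of genes changed 1.5-fold and 96% of those changed 2-fold were recovered, with 8 false calls of 9496. These counts were drawn with 1 spread for all genes and 1 mean profile for all sums, and only genes of at least 20 CPM were changed. The simulation therefore does not cover changes in genes of lower level, a spread that differs by gene or differences between hashtags.

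Named genes are the gate genes, Gfra2, Esrrg, the 12 highest and 12 lowest called genes with 1 sign in 3 of 3 hashtags and at least 20 CPM, up to 3 called genes a list and the cDC2 identity genes; other genes were named after their values were seen, and a few genes are not reported here. Members and lists were chosen with earlier results of these data known. Alternatives were DESeq2 1.42.0, other scaling, filters, bars and depths, no block and each hashtag left out; the Sirpa bar of 3 and the comparison within members were chosen after seeing the data. Intervals are Wilson intervals and cover counting error only. Coordinates and sequences are from RefSeq, GRCm38.p6; bases that lie in a transcript by another annotation were trimmed. Overlapping genes and paralogues can share reads.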

Additional observations from a re-analysis of the deposited data

Results flagged for a closer look

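For 31 of the genes named in the text, the contrast of Sirpb1-high with Sirpb1-low cells differed between hashtags 2, 4 and 5 and hashtags 6, 8 and 9 by the test of the difference itself (edgeR quasi-likelihood test, Benjamini-Hochberg over all 11076 genes). Values are the log2 fold change in hashtags 2, 4 and 5 minus that in hashtags 6, 8 and 9.

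The difference was positive for Cd209a (0.95), Adgre1 (0.78), Clec4a2 (0.76), Tyrobp (0.60), Itgam (0.56), Fcer1g (0.51), Lyn (0.48), Mgl2 (1.18) and Kit (0.38), for the antigen presentation genes H2-DMa (0.52), Cd74 (0.50) and H2-Ab1 (0.44), and for Skint3 (0.85), Ifitm6 (0.78), Plac8 (0.65), Ifitm3 (0.56) and the transcription factor Zbtb46 (0.51).

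It was negative for Cntn1 (-5.21), Ankrd33b (-3.63), Cdh2 (-3.53), Kcnq5 (-3.33) and Il7r (-1.48), for the migratory DC markers Cacnb3 (-2.42), Socs2 (-1.70), Apol7c (-1.04) and Ccr7 (-0.82), for the cDC1 marker Cadm1 (-1.89) and for Klf2 (-1.50), Fos (-0.87), Nr4a2 (-0.59) and Klf4 (-0.51). In hashtags 2, 4 and 5, 6 Sirpb1-low cells held 50% of the UMIs of Cntn1 and 6 those of Kcnq5. Depth differed between the classes in both trios (medians of 7040 to 8978 against 4064 to 4749 UMIs, and 15367 to 16170 against 12136 to 12761), and of the 31 differences 15 were also called in the depth window and 7 with the thinned gate.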

How the results depend on the processing

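Counts of called genes moved with depth, tool, filter and block. For members against Sirpb1-low cells in hashtags 2, 4 and 5 (1593), DESeq2 gave 761, a Sirpb1 bar of 5 gave 992, stricter quality filters 852, Sirpa of at least 3 gave 530, the depth window 419 and the thinned gate 663, and leaving out 1 hashtag gave 924 to 1697. In hashtags 6, 8 and 9 (836) these were 551 (DESeq2), 152 (window) and 89 (thinned), with 3228 when no filter on low counts was used and 767 to 898 without 1 hashtag. Against all other cells (4459) DESeq2 gave 2588 and leaving out 1 hashtag 3709 to 4025. Within the members (165) the window gave 29 and leaving out 1 hashtag 75 to 228. Without the replicate block the counts were 1282, 428, 3820 and 11 in the same order. The members' share in hashtags 2, 4, 5, 6, 8 and 9 was 21.8%, 25.1%, 15.2%, 8.86%, 9.78% and 8.28% with a bar of 2, 10.9%, 13.2%, 7.74%, 0.906%, 1.02% and 0.740% with a bar of 5, and 12.96%, 16.6%, 8.91%, 0.912%, 0.785% and 0.486% after thinning; stricter quality filters gave 19.98% in hashtag 2 and 14.2% in hashtag 5. Signs turned in the window for Pclaf (-0.48), Top2a (-0.19) and Rrm2 (-0.29) and with the thinned gate for Pclaf (-0.67), Cdk1 (-0.72), Top2a (-0.31), Rrm2 (-0.12), Il1b (0.0887), Fos (0.0894) and Irf4 (0.0333); the cause was not tested. Besides those whose sign turned, 28 named genes lost their call in the window, 30 with the thinned gate, 29 with Sirpa of at least 3, 20 with DESeq2 and none with another scaling. Comparisons with Mgl2-high (11 cells) and Plet1-high cells (1 cell) were not run, since each sum needed 10 cells.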
